A study of Mus musculus with 6 samples.

Results

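The serine proteases described here are the mouse genes whose symbols begin with Klk (kallikreins), Prss or Tmprss and a number, together with Hpn, St14, Plat, Plau and Htra1. Pseudogene symbols were left out. By that rule 86 of the 24421 gene symbols were members, of which 66 had at least 1 read, 20 had none, and 34 were abundant enough to be tested. Expression was measured by RNA sequencing in 4 castrated (labelled Cx) and 2 intact mouse prostates. All 6 samples, castrated or intact, had 1 genotype, a mouse model of prostate cancer with the PB-Cre4 transgene, a Cre recombinase driven by a probasin promoter, which is active in prostate epithelium. Ages, the time since castration and whether each sample came from a separate animal are not given in the labels, so a p-value here reflects sample-to-sample spread alone, part of which may be technical. No prostate without the model's genotype was analysed here, so each comparison is of castrated with intact prostates within the model.

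Serine proteases cut other proteins with a catalytic serine, and most are made as inactive precursors that another protease must cleave. In the prostate, secreted kallikreins act in the seminal fluid, while membrane-anchored proteases such as matriptase, hepsin and TMPRSS2 act at the surface of epithelial cells and urokinase works with its receptor to generate plasmin. Human KLK3, which encodes prostate-specific antigen, and human TMPRSS2 are classic targets of the androgen receptor. The mouse has no counterpart of KLK3 in the strict sense but carries a large cluster of glandular kallikrein genes, Klk1 and the Klk1b genes, which are best known from the salivary gland.

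The samples held 43679297 to 59170793 reads assigned to genes. No read for a gene is compatible with up to 3 reads, which is 0.0507 to 0.0687 CPM (reads per 1000000 reads in genes) depending on the sample, and such limits cover counting error only. Levels are given as rescaled CPM, the deposited CPM divided by a per-sample scaling factor, and differences as log2(rescaled CPM + 0.5), castrated minus intact, a scale that shrinks differences of genes with low counts. Castrated sample 4 stood somewhat apart: its log2 values correlated at 0.941, 0.970 and 0.954 with castrated samples 1, 2 and 3, while the other castrated pairs correlated at 0.969 to 0.988 and the intact pair at 0.979. With intact samples 1 and 2, castrated sample 4 correlated at 0.9505 and 0.9519, above its value with castrated sample 1. Castrated samples 1 to 3 correlated with the intact samples at 0.9409 to 0.9522. Luminal epithelial markers summed to 6520 to 9812 rescaled CPM in castrated and 9322 to 9524 in intact samples, with reads for 10 of 10 genes. Pbsn, the gene of probasin itself, which responds to androgen, was at 0.209 to 2.47 rescaled CPM in castrated samples, against 2.99 and 7.45 in intact samples. In whole tissue, fewer cells of a type and less RNA per cell cannot be told apart.

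Of the 34 tested proteases, 4 passed the threshold in limma with Benjamini-Hochberg adjustment over all 13898 tested genes. Prss2, an anionic trypsinogen, and Tmprss11e, a membrane protease of stratified epithelium, were higher in castrated prostates, while Tmprss2 and the secreted protease Htra1 were lower. That is 11.8% of the members, beside 1.97% of all tested genes, of which 0.698% were called higher and 1.27% lower. Prss2, at a deposited CPM of 1.58 and 0.376 in intact samples 1 and 2, needed castrated samples to enter the test. So did Tmprss11e, at 0.595 and 1.13. Both were high in those castrated samples, so the way they entered favoured a rise. At an unadjusted p under 0.05 there were 10 members, 29.4%, beside 15.9% of all tested genes. The castrated and intact values did not overlap in 11 members, 32.4%, beside 26.6% of all tested genes, with castrated samples higher in 7 and lower in 4. The median log2 difference of the 34 was 0.48 and 23 of them were positive, against a median of 0.00 over all tested genes, of which 6956 were positive. The tested Klk1b genes, Tmprss7 and Tmprss11d were under 1 CPM in both intact samples and entered the test through castrated samples alone. That favoured positive differences and members higher in castrated samples in these figures. The count rested on few samples: it was 15 without castrated sample 4, 1 without castrated sample 1, 2 or 3, and 0 without either intact sample. The calls over all genes moved the same way, to 7.63% without castrated sample 4, to 0.565%, 0.6% and 0.333% without castrated samples 1, 2 and 3, and to 0.0652% and 0.00725% without intact samples 1 and 2. At an unadjusted limma p under 0.05 there were 7 of 34 members and 1285 of 13806 genes without intact sample 1, and 8 of 34 members and 1443 of 13785 genes without intact sample 2. With all 6 samples, edgeR called 2 of the 34, Tmprss11e and Htra1, beside 1.46% of all genes, and DESeq2 called 12, beside 9.3% of all genes.

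**Figure D1:**
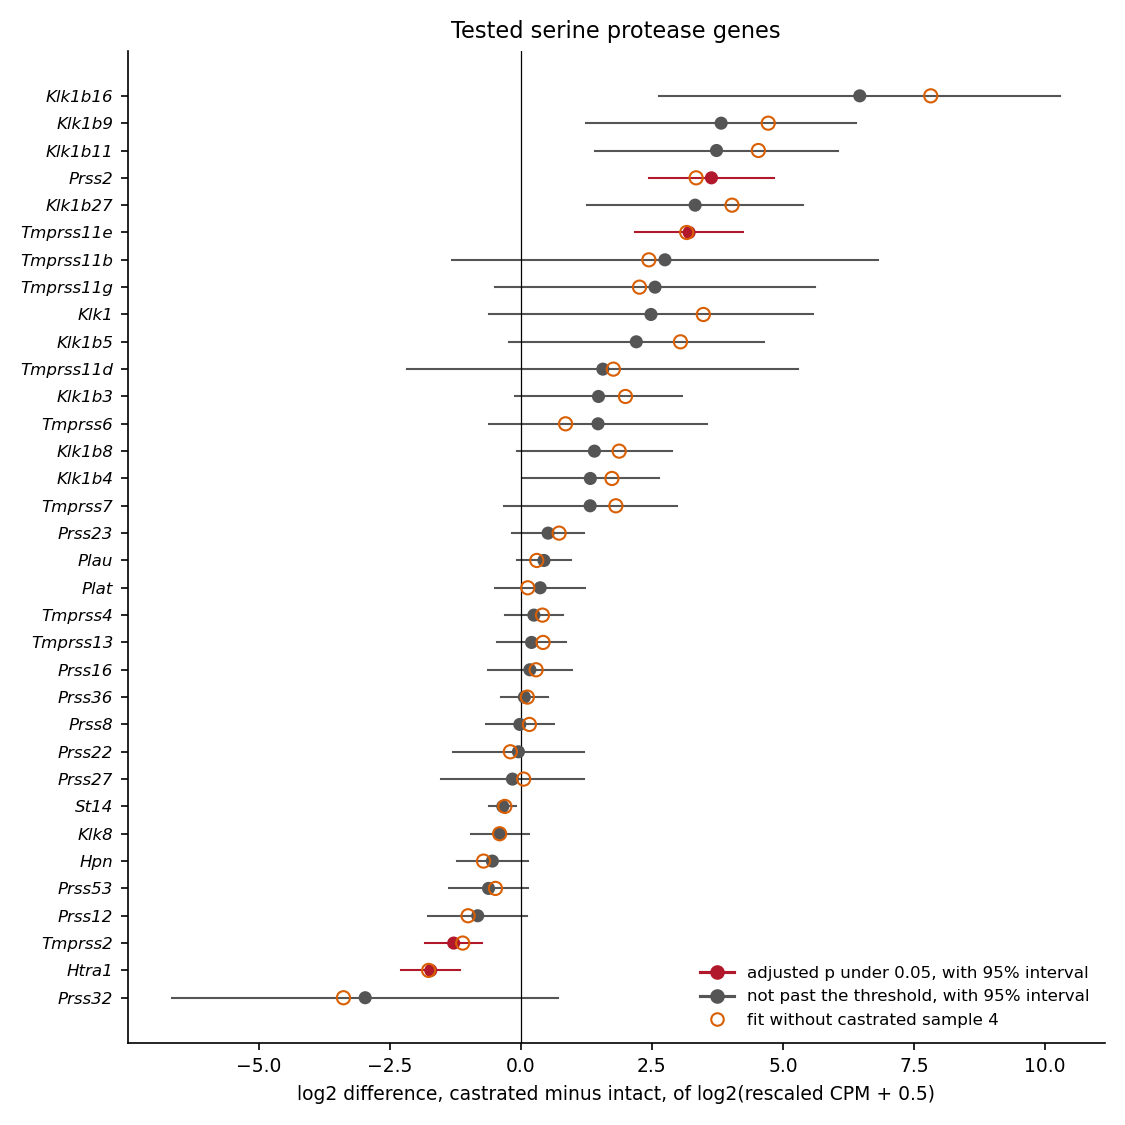
Log2 difference, castrated minus intact, on log2(rescaled CPM + 0.5), of the 34 tested serine proteases, with 95% limma intervals, in red for the 4 genes past the adjusted threshold; open orange circles are the fit without castrated sample 4. Klk1b16 lies farthest to the right at 6.47 (2.64 to 10.29) and at 7.82 without castrated sample 4, while the intervals of Tmprss11e, Prss2, Htra1 and Tmprss2 are narrower and stay clear of 0.

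Tmprss2, a type II transmembrane protease, gave 347, 388, 384 and 230 rescaled CPM in castrated samples 1 to 4, against 765 and 843 in intact samples 1 and 2. All 4 castrated values lay below both intact ones, and castrated sample 4 was the lowest. The mean was 337 ± 73.9 in castrated samples (SD, n = 4) and 804 ± 54.7 in intact samples (n = 2), so that Tmprss2 fell 2.43-fold (log2 difference -1.28, 95% interval -1.82 to -0.74, limma adjusted p = 0.0496). This call sat at the threshold and was lost when castrated sample 1, 2 or 3 or either intact sample was left out (adjusted p 0.0972 to 0.291), and in edgeR. Without castrated sample 4 the log2 difference was -1.11 with an adjusted p of 0.00531. Tmprss2 lies on chromosome 16 from 97564682 to 97611195 in mm10. Per kilobase of exon it was the most abundant member in intact prostates, at 110.1 rescaled CPM, and stood at 46.2 in castrated prostates, where it ranked behind 4 other members.

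St14 encodes matriptase, an epithelial protease that activates prostasin and hepatocyte growth factor. It was at 454, 447, 494 and 415 rescaled CPM in castrated samples, against 586 and 561 in intact samples. The groups did not overlap and castrated samples were lower, but the log2 difference of -0.34 (95% interval -0.60 to -0.08) had a limma adjusted p of 0.182. Hpn, the gene of hepsin, which also activates hepatocyte growth factor, was at 19.7, 32.6, 28.6 and 42.1 rescaled CPM in castrated samples and 39.0 and 48.4 in intact samples. One castrated value, that of sample 4, exceeded the lower intact value, and the log2 difference was -0.54 (95% interval -1.23 to 0.14, adjusted p = 0.425).

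Tmprss4, a membrane protease of epithelial tumours, was the most abundant member per kilobase of exon in castrated prostates, at 104.3 rescaled CPM per kilobase, and the next after Tmprss2 in intact ones, at 85.7. Its 4 castrated values of 343, 259, 291 and 187 rescaled CPM spanned the intact values of 225 and 219. Tmprss13, a mosaic serine protease of epithelia, had a like arrangement, with 125, 115, 131 and 66.5 rescaled CPM in castrated samples and 89.2 and 94.5 in intact samples. For both genes castrated samples 1 to 3 lay above, and castrated sample 4 below, both intact samples. The limma adjusted p was 0.674 for Tmprss4 and 0.788 for Tmprss13. In the fit without castrated sample 4, Tmprss13 passed, with a log2 difference of 0.42 and an adjusted p of 0.0464. That fit called 7.63% of all genes and left out the castrated sample below both intact ones, so the pass describes castrated samples 1 to 3. A part of the Tmprss4 exons, 15.9% of bases, overlaps an annotated gene on the other strand, and no source used here says if reads were counted by strand.

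Tmprss6, matriptase-2, known from the liver as a regulator of hepcidin, was at 4.06, 7.02, 2.07 and 24.1 rescaled CPM in castrated samples and 1.14 and 3.17 in intact samples. Castrated sample 3 lay between the intact values and castrated sample 4 was the highest (adjusted p = 0.487). Tmprss7, matriptase-3, ran the other way among castrated samples, with 3.89, 1.32, 2.86 and 0.258, against 0.350 and 0.349 in intact samples. Tmprss3, Tmprss5, Tmprss9 and Tmprss12 were below the abundance needed for a test, with 39, 34, 11 and 1 reads over all 6 samples, and Tmprss15, the enteropeptidase of the duodenum that activates trypsinogens, had none.

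**Figure D2:**
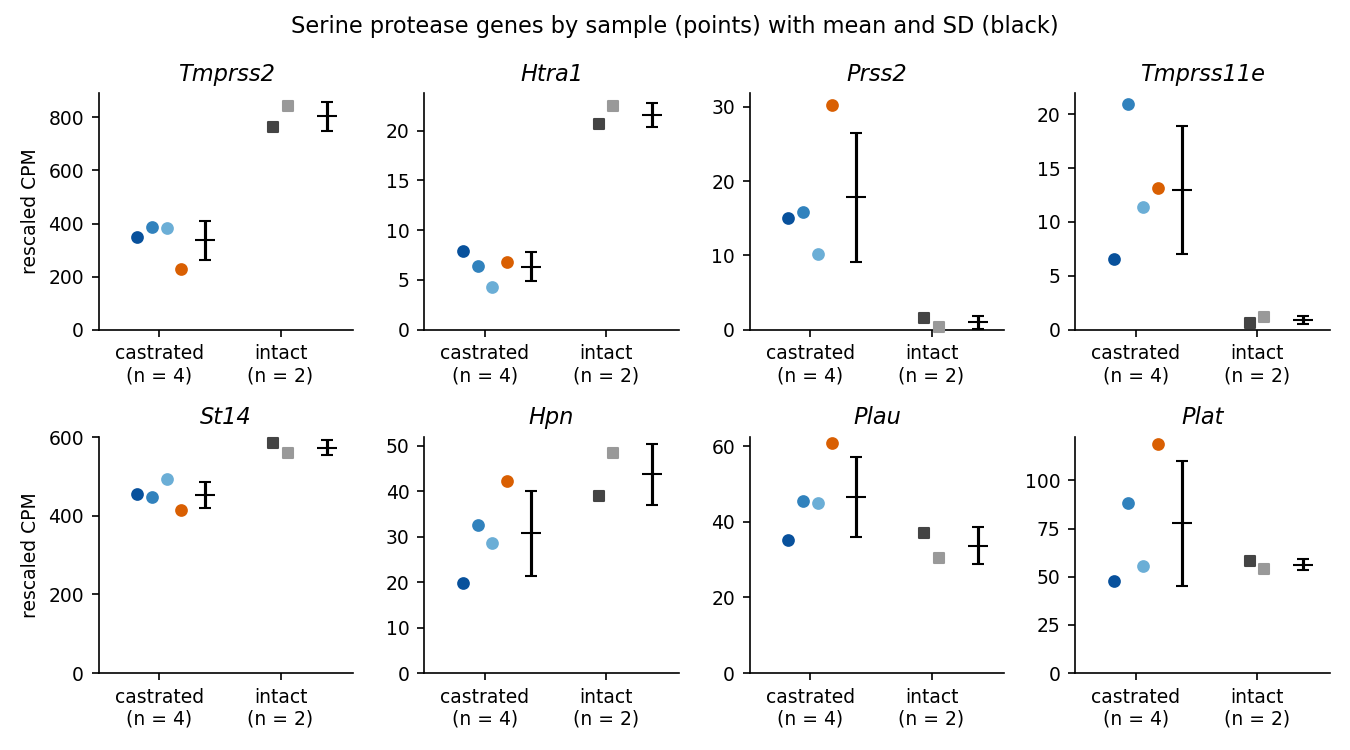
Rescaled CPM by sample of serine proteases outside the kallikrein cluster, each on its own linear axis, castrated samples left of intact samples. Orange marks castrated sample 4, and black bars give the mean and SD of each group; Tmprss2, Htra1 and St14 show every castrated value below both intact values, and Prss2 and Tmprss11e every castrated value above them.

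Htra1 encodes a secreted serine protease that degrades extracellular matrix proteins and inhibits signalling by the transforming growth factor beta family. It gave 7.87, 6.37, 4.33 and 6.78 rescaled CPM in castrated samples 1 to 4, against 20.7 and 22.4 in intact samples. Every castrated value was under both intact values, and castrated sample 4 lay within the range of the other castrated samples. The mean was 6.34 ± 1.48 in castrated samples (SD, n = 4) and 21.6 ± 1.23 in intact samples (n = 2). Htra1 fell 3.29-fold (log2 difference -1.72, 95% interval -2.28 to -1.15, limma adjusted p = 0.0246). Leaving out castrated sample 1 or 2 or either intact sample ended the call, with log2 differences between -1.66 and -1.83 and adjusted p between 0.0507 and 0.209. The gene lies on chromosome 7 from 130936111 to 130985660 in mm10, outside the kallikrein cluster. Fibroblast markers, of a cell type that can also make Htra1, summed to 816 to 1929 rescaled CPM in castrated samples and 1719 to 1855 in intact samples, with overlapping ranges, and their part in the result was not tested.

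Plau encodes urokinase and Plat encodes tissue-type plasminogen activator, both of which cleave plasminogen to plasmin. Plau was at 35.1, 45.6, 45.01 and 60.8 rescaled CPM in castrated samples and 37.1 and 30.3 in intact samples. Castrated sample 1 lay between the intact values and the other castrated samples above them, and the log2 difference of 0.44 (95% interval -0.08 to 0.96) did not pass (limma adjusted p = 0.388). Plat was at 47.8, 88.5, 55.7 and 119 rescaled CPM in castrated samples and 58.3 and 54.2 in intact samples. Castrated samples 2 and 4 were high and the groups overlapped (log2 difference 0.37, 95% interval -0.49 to 1.23, adjusted p = 0.693).

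Of the 38 Prss genes, 23 had reads and 10 were tested, and Prss2 was the 1 that passed. Prss2 encodes anionic trypsinogen, best known as a digestive enzyme of the pancreas. It gave 15.0, 15.8, 10.2 and 30.3 rescaled CPM in castrated samples 1 to 4, against 1.61 and 0.384 in intact samples 1 and 2. Even the lowest castrated sample was well above the higher intact sample, and castrated sample 4 was the highest. The mean was 17.8 ± 8.68 in castrated samples (SD, n = 4) and 0.997 ± 0.868 in intact samples (n = 2), and Prss2 rose 12.4-fold (log2 difference 3.64, 95% interval 2.45 to 4.82, limma adjusted p = 0.0243). The size depended on which intact sample served as baseline: the rise was 8.04-fold without intact sample 2 and 19.3-fold without intact sample 1. The call was lost on leaving out any one sample other than castrated sample 4 (adjusted p 0.0592 to 0.169), and in edgeR (adjusted p = 0.0626).

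Prss1 and Prss3, close relatives of Prss2, had no reads counted in any sample, but 54.9% of the possible 50-base reads of Prss1 and 66.1% of those of Prss3 also occur in other genes, so reads of theirs could have been left uncounted or counted elsewhere. Of 14 markers of pancreatic acinar cells 10 had reads, and the list summed to 8.22 to 22.2 rescaled CPM in castrated samples and 3.67 to 5.56 in intact samples, higher in every castrated sample. Cela3b, Cpa1, Cpb1 and Amy2a5, genes of an elastase, carboxypeptidases and an amylase, had no reads in any of the 6 samples. Pnlip, the gene of pancreatic lipase, was at 4.49, 3.78, 4.93 and 1.30 rescaled CPM in castrated samples, against 0 and 0.0872 in intact samples, without overlap. Pnliprp1, a gene related to it, was at 2.64, 1.88, 1.75 and 17.8 in castrated samples, against 0.700 and 1.99 in intact samples, with overlap and with castrated sample 4 highest, as for Prss2. The higher sum came mostly from Pnlip and Pnliprp1. Cela1 did not rise, at 2.14, 1.79, 1.84 and 2.22 in castrated samples and 2.15 and 2.60 in intact samples. Nor did Ctrl, at 0.379, 0.340, 0.701 and 0.580 in castrated samples and 0.724 and 0.471 in intact samples. The part of pancreatic acinar cells in the Prss2 values was not tested. Prss2 lies on chromosome 6 from 41521787 to 41525079 in mm10. Of its possible 50-base reads 7.83% also occur in another gene and of its 100-base reads 0%. Since Prss2 carried the largest called rise among the members, the 120 bases before its RefSeq transcription start are given (GRCm38.p6, chr6:41521656-41521775, plus strand). The TATAAA motif is in capitals, 16 bases upstream of that start. The GENCODE start of Prss2, at 41521787, lies farther downstream, so the distance depends on the annotation.
Prss2: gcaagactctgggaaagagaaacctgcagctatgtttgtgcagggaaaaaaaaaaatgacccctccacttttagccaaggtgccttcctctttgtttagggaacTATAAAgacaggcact
The letters TATAAA, read on the gene's strand in the 250 bases before the start, occurred in 6 of 80 member promoters and in 7.592% of the 32851 promoters in the RefSeq table.

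Prss8 encodes prostasin, a membrane-anchored protease that activates the epithelial sodium channel. It was at 166, 118, 125 and 80.6 rescaled CPM in castrated samples and 106 and 135 in intact samples. The castrated values spanned the intact ones and the log2 difference was -0.02 (95% interval -0.67 to 0.63), so a difference of 2-fold lay outside the interval. Prss23, a secreted protease, was at 124, 92.3, 125 and 62.2 rescaled CPM in castrated samples and 70.4 and 64.8 in intact samples. Castrated samples 1 to 3 were above and castrated sample 4 below both intact samples. Its limma adjusted p was 0.447, and in the fit without castrated sample 4 it passed (log2 difference 0.73, adjusted p = 0.0431). That fit called 7.63% of all genes and left out the castrated sample below both intact ones, so the pass describes castrated samples 1 to 3. Part of the Prss23 exons, 22.9% of bases, overlaps an antisense gene.

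Prss27 and Prss22, which encode marapsin and tryptase epsilon, both epithelial proteases, showed no ordered difference. Prss27 was at 18.8, 74.4, 32.7 and 19.4 rescaled CPM in castrated samples and 26.5 and 44.7 in intact samples, and Prss22 at 9.88, 31.8, 8.54 and 21.6 in castrated samples and 15.1 and 17.2 in intact samples. In both genes castrated sample 2 was the highest of all 6. Prss32 spanned a wide range, with 0.228, 31.6, 0.666 and 9.05 rescaled CPM in castrated samples and 19.2 and 49.7 in intact samples. Castrated samples 1 and 3 were near 0 while castrated sample 2 lay between the intact samples (log2 difference -2.97, 95% interval -6.65 to 0.71, limma adjusted p = 0.417). Prss53, Prss36, Prss16 and Prss12 had limma adjusted p between 0.38 and 0.917, and 76.7% of the exon bases of Prss53 are shared with another gene on the same strand, which makes its counts uncertain.

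Below the abundance needed for a test, Prss35 and Prss46 had castrated values above both intact values. Prss35 was at 0.607, 0.644, 0.596 and 0.741 rescaled CPM in castrated samples and 0.187 and 0.436 in intact samples. Prss46 was at 0.0759, 0.501, 0.333 and 0.435 rescaled CPM in castrated samples, against 0.0467 and 0 in intact samples. It had 78 reads over the castrated samples and 2 over the intact samples, a ratio of 17.7 in reads per 1000000 with a 95% exact counting interval of 4.75 to 149. That interval covers counting error in the pooled reads only, and castrated sample 1 had 4 of the 78 reads. Prss30 and Prss57 had 169 and 38 reads in all, and the other 9 Prss genes with reads had 1 to 17. Of those, Prss33, with 0, 0, 0 and 1 reads in castrated samples and 6 and 4 in intact samples, and Prss41, with 0, 2, 1 and 0 in castrated samples and 2 and 12 in intact samples, had rescaled castrated values below both intact values. No reads were counted for 15 Prss genes.

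The glandular kallikreins, Klk1 and 13 Klk1b genes, included the largest log2 difference of all tested members, that of Klk1b16, and castrated sample 4 departed from the other castrated samples in each of those with reads. Their summed level was 193, 175, 223 and 6.92 rescaled CPM in castrated samples 1 to 4, against 1.10 and 4.69 in intact samples 1 and 2. Castrated samples 1 to 3 were far above both intact samples, and castrated sample 4 was only slightly above the higher one. The same order held gene by gene: of the 13 with reads, castrated samples 1 to 3 lay above both intact samples in 13, castrated sample 4 was the lowest castrated sample in 13, and castrated sample 4 lay above both intact samples in 6. Among these 6, Klk1b1 stood on 1 read in castrated sample 4 and 0 in the intact samples. Of the 9 tested, limma called 0, with 5 at an unadjusted p under 0.05. edgeR called 0 as well, and DESeq2 called 7, all higher in castrated samples. Without castrated sample 4 limma called 9 of 9, all higher, in a fit that called 15 of the 34 members, 44.1%, beside 7.63% of all genes in either direction and 3.38% higher. All of the 9 but Klk1 were under 1 CPM in both intact samples and so entered the test through castrated samples alone, which fixed their direction. The sample left out was also the lowest castrated one in each, so these 9 calls describe castrated samples 1 to 3 and do not support the comparison of the groups.

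**Figure D3:**
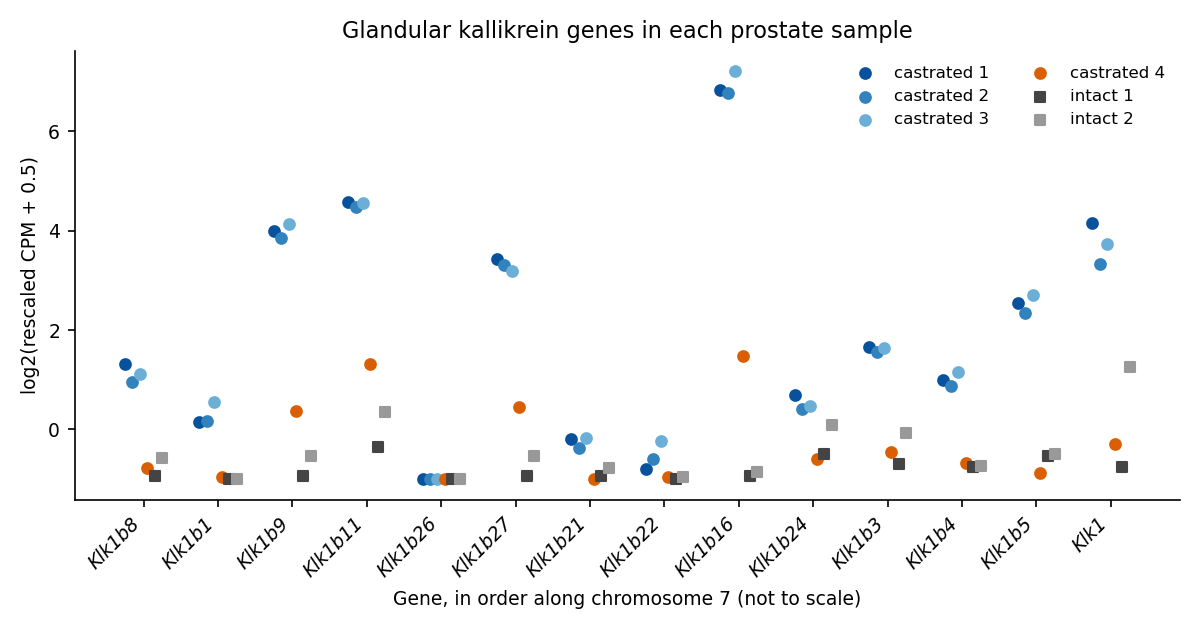
Level in each sample of the 14 glandular kallikreins as log2(rescaled CPM + 0.5), in gene order along the chromosome, castrated samples left of intact samples, with castrated sample 4 in orange. Castrated samples 1 to 3 form a tight group, for Klk1b16 between 108 and 147 rescaled CPM, while castrated sample 4, at 2.29 for that gene, lies nearer to the intact samples than to castrated samples 1 to 3 in every gene with reads.

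Klk1b16 (chromosome 7, 44136767 to 44141610 in mm10), known as the gene of gamma-renin in the mouse submandibular gland, was the most abundant of them. It gave 113, 108, 147 and 2.29 rescaled CPM in castrated samples 1 to 4, against 0.0233 and 0.0523 in intact samples. All 4 castrated values were above both intact ones, but they spanned from 2.29 to 147. It had 20559 reads over the castrated samples and 4 over the intact samples, a ratio of 2339 in reads per 1000000 with a 95% exact counting interval of 913 to 8586. That interval covers counting error in the pooled reads only, not the spread between samples. Those reads were 5968, 6046, 8403 and 142 in castrated samples 1 to 4, so the ratio does not describe castrated sample 4. The log2 difference was 6.47 (95% interval 2.64 to 10.29, limma adjusted p = 0.109). Without castrated sample 4 it was 7.82 with an adjusted p of 8.52e-05. Klk1b16 made up 58.7%, 62.0%, 66.0% and 33.0% of the reads of the glandular kallikreins, scaled by sample, in castrated samples 1 to 4, against 2.13% and 1.12% in intact samples. Per kilobase of exon it ranked 2 among the 66 members with reads in castrated prostates, at 66.9 rescaled CPM, and 44 in intact prostates, at 0.0273.

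Klk1b11, Klk1b9 and Klk1b27 also had groups that did not overlap, and Klk1b9 encodes a protein that binds epidermal growth factor. Klk1b11 was at 23.2, 21.6, 23.0 and 1.98 rescaled CPM in castrated samples and 0.280 and 0.767 in intact samples. Klk1b9 gave 15.3, 14.0, 17.1 and 0.789 in castrated samples, against 0.0233 and 0.192 in intact samples. Klk1b27 gave 10.2, 9.45, 8.56 and 0.870 in castrated samples, against 0.0233 and 0.192 in intact samples. In all 3 genes castrated sample 4 was above both intact samples and far below each of the other castrated samples. Their log2 differences of 3.73, 3.82 and 3.32 had limma adjusted p of 0.118, 0.144 and 0.118. Without castrated sample 4 those differences were 4.53, 4.72 and 4.03, with adjusted p of 0.00128, 0.000799 and 0.00135.

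Klk1 encodes tissue kallikrein, which releases kinins from kininogen. It was at 17.4, 9.58, 12.7 and 0.322 rescaled CPM in castrated samples, against 0.0934 and 1.88 in intact samples. Castrated sample 4 lay between the intact values, and the log2 difference was 2.48 (95% interval -0.61 to 5.57, limma adjusted p = 0.42). Klk1b3 and Klk1b4 encode the gamma and alpha subunits of the mouse nerve growth factor complex. Klk1b4 was at 1.498, 1.32, 1.72 and 0.129 rescaled CPM in castrated samples and 0.0934 and 0.105 in intact samples, without overlap (adjusted p = 0.307). Klk1b3, Klk1b5 and Klk1b8 overlapped through castrated sample 4, with log2 differences of 1.48, 2.20 and 1.40. Klk1b1, below the abundance needed for a test, was at 0.607, 0.627, 0.964 and 0.0161 rescaled CPM in castrated samples and at 0 in both intact samples. It had 123 reads over the castrated samples and 0 over the intact samples, which makes the pooled reads at least 18.7-fold higher against a floor of 3 reads over the intact group. Those reads were 32, 35, 55 and 1 in castrated samples 1 to 4, so the bound does not hold for castrated sample 4. Klk1b24, Klk1b21 and Klk1b22 had 207, 63 and 35 reads in all, and Klk1b26 had none.

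The Klk1b genes are close copies, so some reads could be counted for the wrong gene. Of the possible 50-base reads of the 13 genes, 10.1% (Klk1b16) to 33.9% (Klk1b24) also occur in another gene, and of the 100-base reads 0% to 5.26%. No source used here gives the read length. Luminal markers summed to 6520 rescaled CPM in castrated sample 4 and 7538 to 9812 in castrated samples 1 to 3, against 9322 and 9524 in intact samples. Basal markers summed to 1062, 4004, 1282 and 3330 in castrated samples 1 to 4, against 4535 and 4774 in intact samples. Markers of the seminal vesicle, an organ next to the prostate, summed to 0 to 0.161 in castrated and 0 to 0.0233 in intact samples. Whether luminal or basal content has a part in the kallikrein values was not tested.

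Promoters were available for 68 of the 86 member symbols. Those of 4 kallikreins that were high in castrated samples and of Klk1b26, which had no reads, are shown side by side because they share long stretches although their genes differed in level. Each is the 120 bases before the start on GRCm38.p6 from RefSeq, plus strand, with TTTAAA in capitals. They are chr7:44137170-44137289 for Klk1b16, chr7:43995757-43995876 for Klk1b11, chr7:43975941-43976060 for Klk1b9, chr7:44052170-44052289 for Klk1b27 and chr7:44012558-44012677 for Klk1b26. The GENCODE annotation starts Klk1b16 at 44136767 and Klk1b26 at 44012168, before these stretches. For those genes the start differs between RefSeq and GENCODE.
Klk1b16: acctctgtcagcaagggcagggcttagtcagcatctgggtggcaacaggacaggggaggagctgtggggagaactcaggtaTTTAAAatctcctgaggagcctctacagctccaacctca
Klk1b11: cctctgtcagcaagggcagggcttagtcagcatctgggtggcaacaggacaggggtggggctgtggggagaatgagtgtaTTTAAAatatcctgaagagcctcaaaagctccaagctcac
Klk1b9: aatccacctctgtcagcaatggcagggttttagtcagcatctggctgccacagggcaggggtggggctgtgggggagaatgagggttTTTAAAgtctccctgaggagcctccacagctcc
Klk1b27: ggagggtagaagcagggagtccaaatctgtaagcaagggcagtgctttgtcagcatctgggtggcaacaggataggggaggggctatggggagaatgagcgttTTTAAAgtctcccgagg
Klk1b26: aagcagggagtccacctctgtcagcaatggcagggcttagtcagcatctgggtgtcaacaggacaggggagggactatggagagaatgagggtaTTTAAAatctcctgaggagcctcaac
The palindrome TTTAAA occurred in the 250 bases before the start in 12 of 13 Klk1b promoters, against 12.076% of all 32851 promoters. When the 250 bases before each start were aligned to those of Klk1b16, identity over the aligned bases was 91.13% for Klk1b11 (248 aligned bases), 83.88% for Klk1b9 (242), 85.02% for Klk1b27 (227) and 90.72% for Klk1b26 (237). Among the Klk1b genes not shown it ran from 78.6% for Klk1b8 to 87.55% for Klk1b1. The full inverted-repeat androgen response element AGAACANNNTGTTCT, on either strand, occurred in 0 of 80 member promoters and in 3 of all promoters. Its 6-base arm AGAACA, on either strand, occurred in 13 of 80 member promoters, in 2 of 14 of the glandular kallikreins and in 16.085% of all promoters. These are letter matches in short windows and say nothing of where a factor binds.

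The other kallikreins, best known from skin and other stratified epithelia, were nearly silent. Of 12 genes, 9 had reads and 1, Klk8, the gene of neuropsin, was tested. Klk8 was at 1.14, 1.23, 0.912 and 1.10 rescaled CPM in castrated samples and 1.42 and 1.80 in intact samples. The groups did not overlap and castrated samples were lower, but the log2 difference of -0.40 (95% interval -0.96 to 0.15) did not pass (limma adjusted p = 0.472). Klk10, Klk11 and Klk13 came almost wholly from castrated sample 2, at 1.40, 0.680 and 2.24 rescaled CPM. The highest value of any of the 3 in the other 5 samples was 0.0523, for Klk13 in intact sample 2. Klk6, Klk7, Klk9, Klk12 and Klk14 had 1 to 8 reads in all, and Klk4, Klk5 and Klk15 had none.

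The Tmprss11 genes form a cluster of membrane proteases of airway, oral and other stratified epithelia. All 7 had reads and 4 were tested, with 1 past the threshold. Tmprss11e (chromosome 5, 86705186 to 86745815 in mm10) gave 6.58, 20.9, 11.4 and 13.1 rescaled CPM in castrated samples 1 to 4, against 0.607 and 1.15 in intact samples. Every castrated value was several times the higher intact value. The mean was 13.0 ± 5.96 in castrated samples (SD, n = 4) and 0.879 ± 0.385 in intact samples (n = 2), and Tmprss11e rose 9.25-fold (log2 difference 3.21, 95% interval 2.17 to 4.25, limma adjusted p = 0.0243). The call was lost without castrated sample 3 or either intact sample (adjusted p 0.0796 to 0.199), with log2 differences of 2.92 to 3.50. It held without castrated sample 2 (log2 difference 2.95, adjusted p = 0.0462), where Tmprss11e was the only member called, 2.94% of members beside 0.6% of all genes.

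Of the other Tmprss11 genes, only Tmprss11f also had groups that did not overlap. Tmprss11b was at 1.19, 122, 9.92 and 29.5 rescaled CPM in castrated samples and 0.303 and 6.52 in intact samples, and Tmprss11g at 2.67, 95.2, 10.03 and 32.8 in castrated samples and 1.52 and 4.15 in intact samples. Tmprss11d gave 0, 35.9, 1.05 and 1.24 in castrated samples, against 0.444 and 0.349 in intact samples. In these 3 genes castrated sample 2 was the highest by far, castrated sample 1 lay between or below the intact samples, and the limma adjusted p ranged from 0.397 to 0.70. Tmprss11a gave 0.247, 2.65, 0.351 and 0.0161 in castrated samples, against 0 and 0.0698 in intact samples. Tmprss11f, with 40 reads in all, was at 0.019, 0.376, 0.175 and 0.113 rescaled CPM in castrated samples, against 0 and 0.0174 in intact samples. Castrated sample 1 and intact sample 2 had 1 read each, so only the scaling by sample kept the groups apart. Tmprss11c had 3 reads.

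Markers of squamous epithelium, 12 of 12 with reads, summed to 294, 3803, 614 and 1482 rescaled CPM in castrated samples 1 to 4, against 889 and 1074 in intact samples. Krt13, a keratin of stratified non-cornified epithelium, was at 3.41, 635, 54.8 and 170 rescaled CPM in castrated samples and 4.13 and 37.7 in intact samples. Castrated sample 2 was the highest and castrated sample 1 the lowest of all 6 in both. Krt4, with the same highest and lowest samples, was the largest part of the sum in each sample, at 2117 in castrated sample 2. Not every marker had this order. Lor was lower in each castrated sample than in either intact sample. Krt10, Krt6b, Ivl and Sprr1a were highest in castrated sample 2 but lowest in an intact sample. Tmprss11e too was highest in castrated sample 2 and lowest of the castrated samples in castrated sample 1, although all 4 lay above both intact samples. Whether squamous cells have a part in the values of Tmprss11e, Tmprss11b, Tmprss11g, Tmprss11d, Klk10, Klk11 and Klk13 was not tested.

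**Figure D4:**
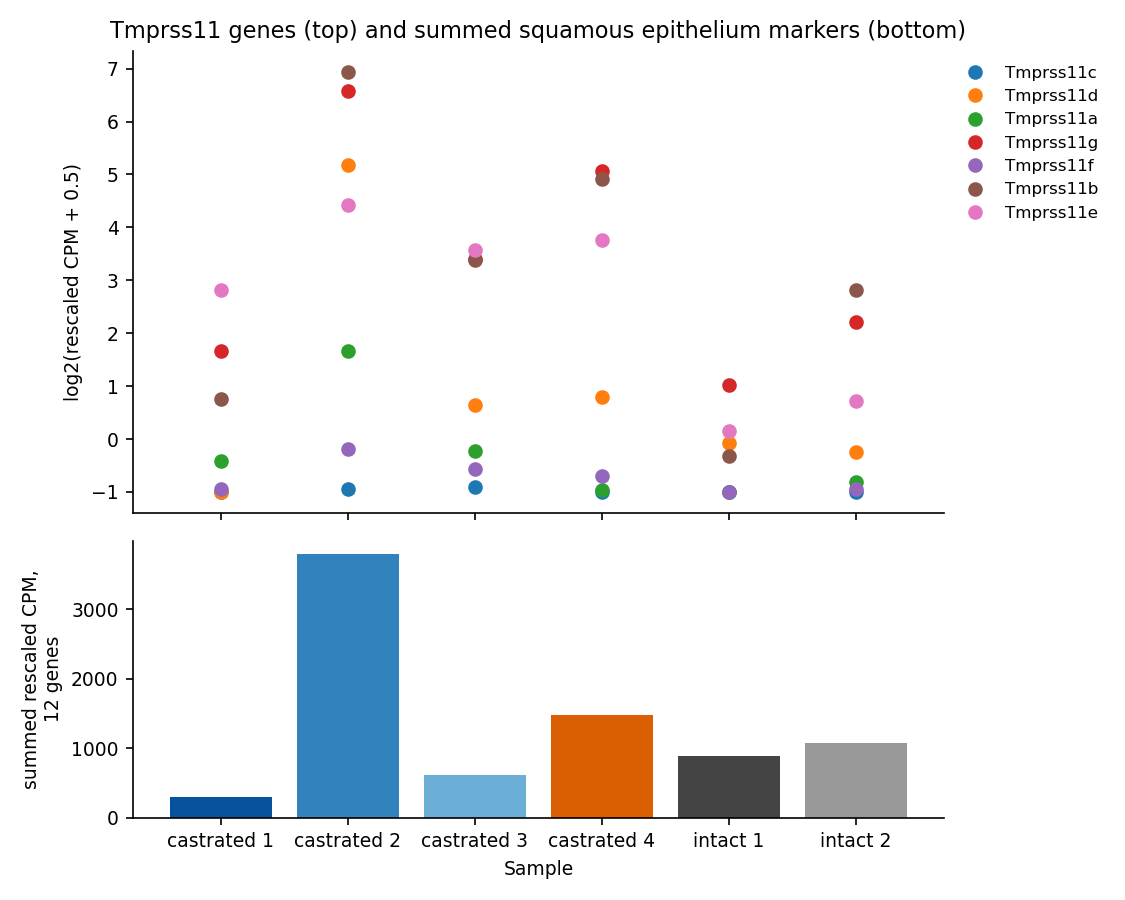
By sample, log2(rescaled CPM + 0.5) of the 7 Tmprss11 genes (points, top) and the sum of the 12 squamous epithelium markers in rescaled CPM on a linear axis (bars, bottom), castrated samples left of intact samples. Castrated sample 2 is the highest for the marker sum, at 3803, and for Tmprss11b, Tmprss11g, Tmprss11d and Tmprss11e.

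Inhibitors, receptors and substrates of these proteases were read from 3 lists of 44 genes with reads, of which 36 were tested. limma called 6 of the 36, 3 higher and 3 lower in castrated samples, which is 16.7% beside 1.97% of all genes; 14 of the 36 were positive and the median log2 difference was -0.26. The list was taken up with earlier results of these data known. Among inhibitors, Spink5, which encodes the kallikrein inhibitor LEKTI, was at 1.86, 16.1, 2.81 and 1.47 rescaled CPM in castrated samples and 264 and 133 in intact samples. All castrated values were far below both intact ones, and the log2 difference was -5.56 (limma adjusted p = 0.0359) with all samples and -6.24 without castrated sample 2. The call was lost without castrated sample 1 or 3 or either intact sample (adjusted p 0.0886 to 0.261), with no filter (0.0665), in edgeR (0.0741) and with the replicate block (0.0699). Spink1, the pancreatic secretory trypsin inhibitor, known in mice as an androgen-responsive gene, had 2 reads over the castrated and 368 over the intact samples (adjusted p = 0.00818). It entered the test only through the intact samples, where it was high, so its direction was fixed, and it was not testable without either of them. Spint1 and Spint2, the Kunitz inhibitors of matriptase and hepsin, had log2 differences of 0.01 (95% interval -0.36 to 0.38) and -0.22 (-0.85 to 0.41), neither past the threshold.

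Among substrates and receptors, Scnn1b and Scnn1g, subunits of the epithelial sodium channel that prostasin activates, were both higher in castrated prostates. Scnn1b was at 197, 188, 206 and 83.7 rescaled CPM in castrated samples and 21.8 and 28.2 in intact samples (log2 difference 2.66, limma adjusted p = 0.0269). Scnn1g gave 23.7, 44.5, 24.6 and 27.95 in castrated samples, against 2.73 and 7.88 in intact samples (log2 difference 2.51, adjusted p = 0.0429; 1.82 without intact sample 1 and 3.20 without intact sample 2). Neither gene overlapped between groups, while Scnn1a, the third subunit of the channel, had a log2 difference of -0.07 (95% interval -0.74 to 0.60). Igfbp3, a binding protein for insulin-like growth factors that serine proteases cleave, was at 139, 203, 198 and 180 rescaled CPM in castrated samples and 51.5 and 85.6 in intact samples (log2 difference 1.42, adjusted p = 0.0434). On leaving out 1 sample, the calls of Scnn1b, Scnn1g and Igfbp3 held only without castrated sample 4. With no filter they were lost (limma adjusted p 0.0529, 0.0768 and 0.0756). Scnn1g and Igfbp3 were also lost in edgeR (adjusted p 0.0783 and 0.065) and in limma without the mean-variance trend (0.0579 and 0.0622). S100a10, which with annexin A2 binds plasminogen and tissue-type plasminogen activator at the cell surface, was at 70.8, 87.4, 73.4 and 78.3 rescaled CPM in castrated samples and 227 and 192 in intact samples (log2 difference -1.43, adjusted p = 0.00818). Plaur, the urokinase receptor, gave 12.1, 15.0, 12.3 and 20.1 in castrated samples, against 25.6 and 20.2 in intact samples, without overlap but not past the threshold (adjusted p = 0.257), and Plg, the gene of plasminogen, had no reads. The 6 calls became 2, 3, 2 and 12 without castrated samples 1, 2, 3 and 4, and 0 in limma without either intact sample, fits in which the share of all genes called moved as given for the members. At an unadjusted p under 0.05 there were 9 of 35 partner genes without intact sample 1 and 13 of 35 without intact sample 2, beside the 1285 and 1443 genes over the whole table.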

How the data were processed

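RNA sequencing of 6 mouse prostate samples was used, 4 castrated and 2 intact. The authors deposited CPM values (reads per 1000000 reads counted in genes) for 24421 gene symbols per sample. Per the submitters' processing notes, TopHat2, HTSeq and edgeR were used with the build mm10; their versions, settings, read length and strandedness are not given in the sources used here. In each deposited CPM column, 100% of values were integer multiples of the lowest non-zero one (tolerance 1e-06), so whole reads were recovered.

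CPM was divided by median-of-ratios size factors. Genes reaching 1 CPM in 2 or more samples (13898) were fitted as log2(rescaled CPM + 0.5) with limma 3.58.1 in R 4.3.3 (empirical Bayes, mean-variance trend), castrated minus intact, two-sided, with Benjamini-Hochberg adjustment over all of them and a threshold of 0.05. Intervals are 95%. Of the 86 members, 32 with reads fell below the filter and are described without a test. The recovered reads were also tested with edgeR 4.0.16 (quasi-likelihood) and with DESeq2 1.42.0 as alternatives, beside other pseudocounts, filters, scalings, sample weights, each sample left out and a replicate block. The steps were tested on simulated counts.

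The members, the partner and marker lists, and the tests were chosen with earlier results of these data known. Values by sample are given for members past the threshold or at an unadjusted p under 0.05, for those with non-overlapping groups and either a log2 difference of at least 1 or, below the filter, at least 20 reads, for the 5 most abundant, and for Hpn, St14, Plat, Plau, Htra1 and Tmprss2. Partners are the 6 with the smallest p, with Plaur, Spint1 and Spint2. Values of other genes were added after they were seen. Gene positions and exon overlaps are from the GENCODE M21 annotation of GRCm38, which mm10 names; promoters are from RefSeq, GRCm38.p6. Some details of the genotype and some marker genes are not reported here.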

Additional observations from a re-analysis of the deposited data

Results flagged for a closer look

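In the 49 members that were tested or had at least 20 reads, the 4 castrated samples were searched for 1 value far from the other 3, and 7 genes had one. The cutoff flags about 1 such group in 20 for independent, normally distributed values. The untransformed values here were skewed and the genes moved together by sample, so that rate does not apply. In 5 of the 7 genes the sample was castrated sample 2, which was far above the others for Klk10 (1.40 rescaled CPM), Klk11 (0.680), Klk13 (2.24), Tmprss11a (2.65) and Tmprss11d (35.9). In the other 2 it was castrated sample 4, far below the others for Klk1b11 (1.98 rescaled CPM) and Klk1b3 (0.225).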

How the results depend on the processing

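Over 17 alternatives, the single-gene results kept direction and side of the threshold in 331 cases, lost the threshold in 55, gained it in 22 and turned in 12. Called members numbered 4, against 2 with no filter (0.872% of all genes), 10 with sample weights (6.86%), 2 in edgeR, 12 in DESeq2 and 0 to 15 on leaving out 1 sample. Called partner genes numbered 6, against 2 with no filter, 3 in edgeR and 0 to 12 on leaving out 1 sample. With the replicate number as a block, 9 members (3% of all genes) and 7 partners passed; the numbers were not shown to pair the samples, since the deviations of same-numbered samples correlated at 0.0755 and 0.226 over 2 pairs only. Prss8, near 0, had a log2 difference of 0.029 with CPM as deposited, 0.017 with quantile normalization, 0.038 with sample weights, 0.011 in edgeR, 0.016 in DESeq2, 0.22 with the block and -0.20 to 0.16 on leaving out 1 sample. Spint1 stood at -0.0014 in edgeR and -0.19 to 0.20 on leaving out 1 sample, and Spint2 at 0.042 with the block. The causes were not tested. Tmprss2 was also not called at a pseudocount of 0.1, with no filter, at a CPM of at least 5 or without the trend, and Htra1 with no filter. With 2 intact samples, each leave-one-out fit without one of them assumes that the lone sample varies like the castrated group.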
